A study of Mus musculus with 16 samples.

Results

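Bulge stem cell genes are taken here as genes that mark or regulate stem cells of the hair follicle, and not all are particular to resting bulge cells. On every array of the series 10 of them were followed: Cd34, Lgr5, Krt15, Sox9, Lhx2, Nfatc1, Tbx1, Foxc1, Lrig1 and Tcf7l1. They were chosen by symbol, as all probe sets that the array's annotation ties to 1 of these genes. This gave 21 of the 45101 probe sets on the array and 10 of the 12580 genes tested. Of the 21 probe sets, 17 passed the filter on low intensity and 4 did not: 1 of 2 for Lgr5, 1 of 3 for Sox9 and 2 of 5 for Nfatc1. Each of the 10 genes kept at least 1 probe set.

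The study asked how skin expression responds when the telomerase protein TERT is withdrawn. All 4 mice carried the 2 transgenes of the iK5-TERT line, K5-tTA and tetop-TERT, and received doxycycline in drinking water until postnatal day 10 to 21 so that the transgene stayed silent in development. They were used on day 60 with follicles labelled as anagen. In the TERT-off cohort, doxycycline (8 mcg/g body weight) was injected to silence the transgene, and in the TERT-on cohort PBS was injected. Dorsal skin of 3 cm2 was taken from 2 mice per cohort at 0, 6, 12 and 24 h, with the subcutaneous fat removed, and each of the 16 biopsies was read on 1 array. The strain is not given in the sources used here, and every mouse carried both transgenes, so neither cohort is a wild type. The keratin-5 promoter is active in basal epidermis and the outer root sheath, bulge included, so the transgene reaches more cells than the bulge. Arrays that share a cohort and a replicate number were taken as serial biopsies of 1 mouse. In the labels the 0 h biopsies of the TERT-off cohort count as injected, whereas the study's methods place the injection at that time. These biopsies are treated as the baseline here.

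The bulge is a niche in the outer root sheath where stem cells rest through telogen and are woken at the start of anagen. Its cells share keratinocyte genes with the rest of the outer root sheath, and several transcription factors that maintain them are also active in other follicle cells. CD34 marks mouse bulge keratinocytes but is also carried by endothelial cells, fibroblasts and mast cells, so that in whole skin no 1 gene of the list is read from the bulge alone. In such biopsies, fewer cells of a type and less RNA per cell cannot be told apart.

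The annotation offered promoter sequence for 6 of the 10 genes. The sequences of 3 are shown because these genes had the largest differences between the cohorts, with Cd34 higher and Tbx1 and Foxc1 lower in TERT-off skin. Each run is the 250 bases before the annotated gene start (RefSeq, GRCm38.p6), 5′ to 3′ on the strand of the gene, with CpG dinucleotides in capitals.
Cd34 (chr1:194938571-194938820, plus strand): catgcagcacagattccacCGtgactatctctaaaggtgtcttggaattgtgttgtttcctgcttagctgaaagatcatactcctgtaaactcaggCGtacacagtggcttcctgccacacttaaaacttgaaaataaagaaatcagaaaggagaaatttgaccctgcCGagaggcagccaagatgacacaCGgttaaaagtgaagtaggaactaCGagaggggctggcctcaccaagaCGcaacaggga
Tbx1 (chr16:18590672-18590921, minus strand): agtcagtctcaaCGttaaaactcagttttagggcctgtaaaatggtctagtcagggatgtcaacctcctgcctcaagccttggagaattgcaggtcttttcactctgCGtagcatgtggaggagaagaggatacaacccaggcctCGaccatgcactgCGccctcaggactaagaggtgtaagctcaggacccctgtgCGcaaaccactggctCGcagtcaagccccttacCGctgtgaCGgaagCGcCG
Foxc1 (chr13:31806396-31806645, plus strand): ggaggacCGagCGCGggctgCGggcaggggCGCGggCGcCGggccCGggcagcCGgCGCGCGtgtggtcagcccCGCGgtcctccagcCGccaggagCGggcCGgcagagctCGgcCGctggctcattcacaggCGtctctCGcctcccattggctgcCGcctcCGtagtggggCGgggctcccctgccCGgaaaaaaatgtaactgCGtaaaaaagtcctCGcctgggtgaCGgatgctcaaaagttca
The window of Foxc1 held 29 CpG, that of Tbx1 10 and that of Cd34 6, against a median of 6 over the 32851 promoters of the table. The windows not shown held 17 CpG (a second start of Tbx1), 26 (Lrig1), 25 and 24 (Lhx2) and 29 (Tcf7l1). Lhx2 and Tcf7l1, whose differences did not pass, thus also had more CpG than the median promoter. Cd34 is the only gene of higher signal with a window, so the CpG number cannot be set against the direction of the difference. The 8 windows of the 6 genes were searched on both strands for CTTTGAT and CTTTGAA, which TCF/LEF factors such as the product of Tcf7l1 bind, for ACAAAG and ACAATG of SOX factors, TAATTA of LIM homeobox factors, GTAAACA of forkhead factors and CACGTG, the Myc E-box. These letters were absent from 7 windows. The window of Tcf7l1 held ACAAAG on the opposite strand, with its first base at position −28 from the start, and 16.5% of all promoters hold this motif. The shares of all promoters with a match were 3.21% for CTTTGAT, 4.46% for CTTTGAA, 10.7% for ACAATG, 4.84% for TAATTA, 3.17% for GTAAACA and 6.02% for CACGTG.

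Values are intensities on a linear scale, normalized by the authors between arrays. A difference is given as TERT-off minus TERT-on on the log2 scale with its standard error (SE). By default it is the mean over 6, 12 and 24 h, with 6 arrays from 2 mice in each cohort. It was tested with limma, with the mouse as a random block, and p-values are two-sided and adjusted over all 25563 probe sets tested, with a threshold of 0.05. The probe set with the highest mean stands for its gene, and intensities are not compared between genes. The ratio of 5′ to 3′ Gapdh signal, a sign of RNA quality, was 0.0599 on 1 array, the 0 h biopsy of TERT-on replicate 1, against 0.977 to 1.12 on the other 15. Tert, the targeted gene, read 8.32 to 16.1 in TERT-off mice and 22.6 to 64.6 in TERT-on mice over 6 to 24 h, and 185 to 357 in all 4 mice at 0 h. It had thus dropped below its 0 h level in the TERT-on mice too. The hair shaft keratins stood at unlike levels in the mice at 0 h. The summed intensity of the 7 of these keratins with a value on every array, of 11 tested, was then 279 and 17798 in TERT-off replicates 1 and 2, and 14709 and 5874 in TERT-on replicates 1 and 2. All list sums below likewise leave out genes with an empty cell.

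Over 6 to 24 h, bulge genes differed in both directions between TERT-off and TERT-on skin. Foxc1, Sox9, Tbx1 and Lrig1 were lower in TERT-off skin, Cd34 and Nfatc1 were higher, and Krt15, Lgr5, Lhx2 and Tcf7l1 did not pass the test. Thus 6 of 10 genes passed, 4 lower and 2 higher, where 29.5% of all genes passed, 12.6% lower and 16.9% higher. At an unadjusted p under 0.05, 7 of the 10 passed. The share of all genes at that p is not given here, and the 29.5% is at the adjusted threshold. With each array centred on basal keratinocyte markers, 6 genes were lower and 1 higher. Of all 12580 genes, 4888 were then lower and 963 higher, against 1588 and 2122 in the deposited scaling. Thus 16.5% of all called genes were higher, against 57.2% in the deposited scaling. The median difference of the 10 genes was −0.51, against 0.04 over all 12580 genes. The difference was below 0 in 7 genes and above it in 3. Of all genes tested, 2.73% had a lower difference than Tbx1, 4.08% than Foxc1 and 5.44% than Sox9, and 3.79% had a higher one than Cd34. The 6 TERT-off arrays were separate from the 6 TERT-on arrays for 1 of the 10 genes, Cd34, where 11.4% of all genes were separate, 4.83% with the TERT-off arrays lower and 6.59% with them higher.

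**Figure D1:**
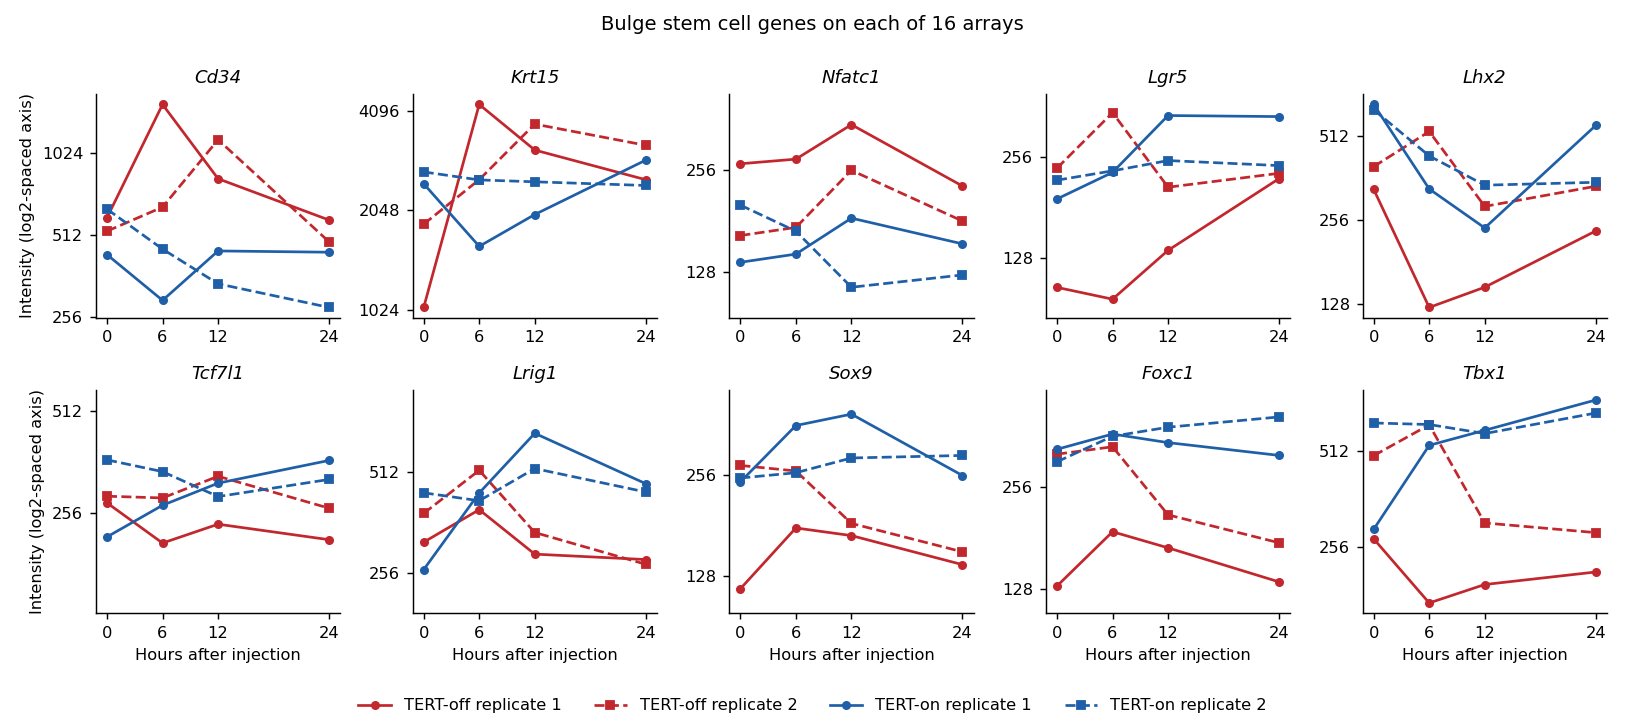
Intensity of the 10 bulge genes (log2-spaced axis, own range in each panel) by hours after injection. Each mouse is a line: TERT-off red, TERT-on blue, replicate 1 solid and replicate 2 dashed. The Cd34 lines of the TERT-off mice lie above those of the TERT-on mice from 6 h on, the Foxc1, Sox9 and Tbx1 lines of TERT-off replicate 2 run lower after 6 h, and the Krt15 lines of both TERT-off mice start lowest and end within the range of the others or above it.

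The count depended on the mice. It was 3 without TERT-off replicate 1 (Cd34, Foxc1 and Sox9) and 9 without TERT-off replicate 2, where Tcf7l1 alone did not pass. Without TERT-on replicate 1 it was 0 (6 at an unadjusted p under 0.05, limma), and without TERT-on replicate 2 it was also 0 (7 unadjusted). In these fits the cohort that lost a mouse holds 1 array at each time, and that array is assumed to vary like the other groups. The share of all genes called in each of these fits is not given here, so the counts cannot be set against it. All 6 calls were lost without either TERT-on mouse, while their directions stayed.

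Among the transcription factors, Foxc1, a forkhead factor that keeps bulge stem cells quiescent, was 1.88-fold lower in TERT-off skin. Its intensity was 189, 169 and 134 in TERT-off replicate 1 at 6, 12 and 24 h, and 338, 212 and 175 in TERT-off replicate 2, against 368, 347 and 318 in TERT-on replicate 1 and 363, 386 and 414 in TERT-on replicate 2. On 5 of the 6 TERT-off arrays Foxc1 was below every TERT-on value, and TERT-off replicate 2 at 6 h lay among these. The difference was −0.91 (SE 0.21, adjusted p = 0.0122), and a second probe set of Foxc1 gave −0.72 (SE 0.20, adjusted p = 0.0223). Its adjusted p was 0.0947 without TERT-on replicate 1 and 0.191 without replicate 2 of that cohort.

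The same TERT-off mice did not start alike. Foxc1 at 0 h was 130 and 321 in TERT-off replicates 1 and 2 and 332 and 305 in TERT-on replicates 1 and 2. TERT-off replicate 1 was therefore low at 0 h already and stayed low, with a mean log2 change of 0.32 from its own 0 h biopsy, whereas the log2 changes of TERT-off replicate 2 were −0.60 at 12 h and −0.87 at 24 h. The hair shaft keratins ran a like course. Their sum in TERT-off replicate 1 was 265, 193 and 181 at 6, 12 and 24 h, and in TERT-off replicate 2 it was 14775, 871 and 452. On TERT-on arrays of these times it was 5315 to 19395. All 11 keratins tested were lower over 6 to 24 h in the TERT-off cohort (median −4.84), none was at the floor on every array, and their part in the difference of Foxc1 was not tested.

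Sox9, an SRY-box factor needed to form and keep the outer root sheath and its stem cells, was 1.71-fold lower in TERT-off skin. It read 178, 169 and 139 in TERT-off replicate 1 at 6, 12 and 24 h, and 263, 184 and 151 in TERT-off replicate 2, against 359, 388 and 255 in TERT-on replicate 1 and 260, 287 and 292 in TERT-on replicate 2. The groups overlapped through 1 TERT-off array, that of TERT-off replicate 2 at 6 h. The difference was −0.78 (SE 0.20, adjusted p = 0.0173). A dimmer probe set gave −0.91 (SE 0.21, adjusted p = 0.0105), and on it the TERT-off values (107 to 199.9) did not reach the TERT-on values (203 to 363). At 0 h, Sox9 was 118 in TERT-off replicate 1, the lowest value of the 16 arrays, 273 in TERT-off replicate 2, and 244 and 251 in TERT-on replicates 1 and 2. Without TERT-on replicate 1 the adjusted p was 0.170, and without TERT-on replicate 2 it was 0.143.

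Tbx1, a T-box factor that supports the self-renewal of bulge stem cells in mice, had the largest difference of the 10 genes and was 2.31-fold lower in TERT-off skin. Its intensity in TERT-off replicate 1 was 171, 195 and 214 at 6, 12 and 24 h, and it was 621, 305 and 284 in TERT-off replicate 2, against 535, 597 and 743 in TERT-on replicate 1 and 622, 583 and 676 in TERT-on replicate 2. All but 1 of the TERT-off arrays stood below the TERT-on range, and that of TERT-off replicate 2 at 6 h stood inside their range. At 0 h Tbx1 was 272 and 496 in TERT-off replicates 1 and 2. It was then 291 (the array of low Gapdh ratio) and 629 in TERT-on replicates 1 and 2. Both TERT-off mice and TERT-on replicate 1 were thus below every later TERT-on value at 0 h already, and TERT-on replicate 2 was not. The difference over 6 to 24 h was −1.21 (SE 0.31, adjusted p = 0.0165). It was −0.72 (adjusted p = 0.0520) without TERT-off replicate 1, −1.22 (adjusted p = 0.108) without TERT-on replicate 1 and −1.20 (adjusted p = 0.164) without replicate 2 of that cohort. With no filter on dim probe sets the adjusted p was 0.0511.

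Lhx2, a LIM homeobox factor that helps to hold bulge cells in their resting state, did not pass. It ranged between 124 and 533 in TERT-off mice (median 260) and between 240 and 560 in TERT-on mice (median 346), and the groups overlapped widely. The difference was −0.56 (SE 0.32, 95% interval −1.27 to 0.14, adjusted p = 0.216). The TERT-off mice differed from each other: replicate 1 read 124, 147 and 234 and replicate 2 read 533, 287 and 339. Without TERT-off replicate 1 the difference was 0.035 (adjusted p = 0.906), and without TERT-off replicate 2 it was −1.16 (adjusted p = 0.00348). With basal keratinocyte centring it was −0.90 (adjusted p = 0.0457). Lhx2 was below the 0 h level of the same mouse on 11 of 12 later arrays, TERT-on mice included, where the change was −0.84 (adjusted p = 0.269).

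Tcf7l1, the TCF/LEF factor that represses Wnt targets in resting bulge cells, had a difference of −0.32 (SE 0.16, 95% interval −0.66 to 0.03, adjusted p = 0.156). Its range was 208 to 328 in TERT-off mice and 269 to 366 in TERT-on mice, with 4 TERT-off arrays below all TERT-on arrays. The second probe set read −0.36 (SE 0.16, adjusted p = 0.111). The difference was −0.11 (adjusted p = 0.672) without TERT-off replicate 1, −0.52 (adjusted p = 0.0524) without TERT-off replicate 2, and −0.65 (adjusted p = 0.0129) with basal keratinocyte centring.

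Nfatc1, the calcineurin-regulated factor that represses Cdk4 and keeps bulge cells out of the cell cycle, differed in the other direction and was 1.61-fold higher in TERT-off skin. It read 277, 350 and 230 in TERT-off replicate 1 at 6, 12 and 24 h, and 174, 256 and 181 in TERT-off replicate 2, against 145, 185 and 155 in TERT-on replicate 1 and 169, 115 and 125 in TERT-on replicate 2. Values above the TERT-on range came from 4 TERT-off arrays, and the other two lay near the highest TERT-on value of 185. At 0 h Nfatc1 was 268 and 164 in TERT-off replicates 1 and 2 and 137 and 202 in TERT-on replicates 1 and 2. TERT-off replicate 1 thus began above every TERT-on value. The 0 h difference was 0.34 (SE 0.32, adjusted p = 0.796). The change from 0 h in TERT-off mice was 0.18 (SE 0.25, adjusted p = 0.737). The difference over 6 to 24 h was 0.69 (SE 0.20, adjusted p = 0.0254). The other 2 tested probe sets gave 0.56 (SE 0.17, adjusted p = 0.0340) and 0.58 (SE 0.20, adjusted p = 0.0526). This call was lost without TERT-off replicate 1 (0.45, adjusted p = 0.131), without either TERT-on mouse (0.82, adjusted p = 0.0777 for replicate 1 and 0.56, adjusted p = 0.212 for replicate 2), with basal keratinocyte centring (0.36, adjusted p = 0.127), with no filter (adjusted p = 0.0607) and on means per mouse (adjusted p = 0.0596).

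Markers of macrophages differed in the same direction as Nfatc1. All 8 markers tested were higher in TERT-off skin (16.9% of all genes were), with a median of 1.45, a summed intensity of the 5 without an empty cell of 3023 to 7433 on TERT-off arrays and 1760 to 3186 on TERT-on arrays, and none at the floor on every array. At 0 h their median difference was 0.86, with 0 called, and their sums were 3540 and 2058 in TERT-off mice and 1359 and 2198 in TERT-on mice. Their median change from 0 h was 1.37 in TERT-off mice and 0.63 in TERT-on mice. The median difference of these changes was 0.45, with 0 called. Over the 16 arrays, Adgre1, the macrophage receptor F4/80, was among the 3 genes whose log2 intensity was most like that of Nfatc1 (r = 0.93). The part of these cells in the difference of Nfatc1 was not tested.

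Of the surface proteins, Cd34, the sialomucin by which mouse bulge cells are sorted, was 2.18-fold higher in TERT-off skin. It read 1547, 825 and 581 in TERT-off replicate 1 at 6, 12 and 24 h, and 649, 1147 and 483 in TERT-off replicate 2, against 295, 448 and 443 in TERT-on replicate 1 and 455, 339 and 278 in TERT-on replicate 2. Every TERT-off array exceeded every TERT-on array, with the peak at 6 h in 1 TERT-off mouse and at 12 h in the other. The difference was 1.12 (SE 0.24, adjusted p = 0.00888). At 0 h the values overlapped, with 594 and 530 in TERT-off mice and 434 and 638 in TERT-on mice. The adjusted p was 0.0606 without TERT-on replicate 1 and 0.121 without replicate 2 of that cohort.

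By 24 h Cd34 in the TERT-off mice was back near its own 0 h level, with log2 changes of −0.03 and −0.13. Those of the TERT-on mice were 0.03 and −1.20, and TERT-on replicate 2 was the lower of the TERT-on mice at 24 h. Markers of the other skin cells that carry CD34 were also higher in TERT-off skin, where 16.9% of all genes were. Of 10 endothelial markers 8 were higher and 0 lower (median 0.52, summed intensity 1055 to 1726 on TERT-off arrays and 813 to 1140 on TERT-on arrays). Fibroblast markers were higher in 7 of 10 and lower in 0 (median 0.63, summed intensity of 9 21065 to 32476 on TERT-off and 13794 to 22103 on TERT-on arrays). Mast cell markers were higher in 7 of 8 and lower in 0 (median 1.54, summed intensity 1561 to 3144 on TERT-off and 723 to 1490 on TERT-on arrays). At 0 h the median difference was 0.006 for endothelial, 0.18 for fibroblast and 0.92 for mast cell markers, with 0 called. The mast cell sums at 0 h were 2638 and 2381 in TERT-off mice and 987 and 1914 in TERT-on mice. The median change from 0 h in TERT-off mice was 0.48, 0.24 and 0.10 for the 3 lists in the same order. In TERT-on mice it was −0.21, −0.31 and −0.35. None of these 28 markers was at the floor on every array, and their part in the difference of Cd34 was not tested.

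Lrig1, a transmembrane inhibitor of ErbB receptors that marks stem cells of the upper follicle, was 1.44-fold lower in TERT-off skin. Its intensity was 395, 292 and 281 in TERT-off replicate 1 at 6, 12 and 24 h, and 517, 338 and 272 in TERT-off replicate 2, against 443, 665 and 472 in TERT-on replicate 1 and 420, 523 and 446 in TERT-on replicate 2. At 6 h the cohorts overlapped, and at 12 and 24 h both TERT-off mice were below both TERT-on mice. The difference was −0.52 (SE 0.15, adjusted p = 0.0223). A second probe set gave −0.39 (SE 0.14, adjusted p = 0.0627), and the third and dimmest gave 0.27 (SE 0.19, adjusted p = 0.315). Over the 16 arrays the third correlated with the others at r = −0.09 and −0.16, whereas they correlated with each other at r = 0.94, so the probe sets disagree and the mean of all 3 was −0.22 (adjusted p = 0.257). The call was also lost without TERT-off replicate 1 (−0.43, adjusted p = 0.102) and without either TERT-on mouse (−0.44, adjusted p = 0.108 for replicate 1 and −0.61, adjusted p = 0.111 for replicate 2). With basal keratinocyte centring the difference was −0.86 (adjusted p = 0.00439).

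Lgr5, the R-spondin receptor of cycling follicle stem cells, had a difference of −0.49 that did not pass (SE 0.30, 95% interval −1.14 to 0.16, adjusted p = 0.241). It was 96.8, 135 and 221 in TERT-off replicate 1 at 6, 12 and 24 h, and 346, 208 and 229 in TERT-off replicate 2, against 230, 339 and 337 in TERT-on replicate 1 and 233, 249 and 241 in TERT-on replicate 2. The low values were those of TERT-off replicate 1, which was lowest at 0 h too (105, against 192 to 237 in the other 3 mice), and the highest value of the 16 arrays was in TERT-off replicate 2 at 6 h. Without TERT-off replicate 2 the difference passed at −0.91 (adjusted p = 0.00410), and without TERT-off replicate 1 it was −0.074 (adjusted p = 0.751). With basal keratinocyte centring it was −0.83 (adjusted p = 0.0524). The second Lgr5 probe set, between 8.09 and 19.5 on all arrays, failed the filter and gives no level to set beside these.

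Krt15, a keratin of basal and bulge keratinocytes, was the gene of the list with the largest change within TERT-off mice. In TERT-off replicate 1 it was 1041 at 0 h and then 4293, 3123 and 2538 over 6, 12 and 24 h, and it was 1861 and then 2539, 3742 and 3228 in TERT-off replicate 2. In TERT-on replicate 1 it was 2468 and then 1594, 1991 and 2911, and in TERT-on replicate 2 it was 2681 and then 2535, 2502 and 2438. Every later TERT-off array was thus above the 0 h array of its mouse, by 1.36- to 4.12-fold, whereas 5 of 6 later TERT-on arrays were below theirs. The change from 0 h was 1.19 in TERT-off mice (SE 0.25, adjusted p = 0.0667) and −0.17 in TERT-on mice (SE 0.25, adjusted p = 0.734), and the difference of the changes was 1.36 (SE 0.35, adjusted p = 0.294), so neither the change nor the contrast passed. With quantile normalization the change within TERT-off mice passed.

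The TERT-off mice began with less Krt15. At 0 h the difference was −0.89 (SE 0.31, unadjusted p = 0.0153 and adjusted p = 0.557 from limma), and over 6 to 24 h it was 0.48 (SE 0.19, adjusted p = 0.0875). The difference over 6 to 24 h passed after quantile normalization (adjusted p = 0.0450), on means per mouse (adjusted p = 0.0237) and without TERT-off replicate 2 (adjusted p = 0.0358). It was 0.14 (adjusted p = 0.454) with basal keratinocyte centring, and over all its alternatives the adjusted p was 0.0237 to 0.454. Markers of basal keratinocytes, which do not include Krt15, had a summed intensity at 0 h of 10606 and 10679 in TERT-off mice and 13729 and 12047 in TERT-on mice. Over 6 to 24 h 5 of the 10 tested were higher and 0 lower, with a median of 0.33, sums of 10718 to 15449 on TERT-off arrays and 12658 to 15535 on TERT-on arrays, and none at the floor on every array. Krt5, whose promoter drives the transactivator, differed by −0.14 (SE 0.10, adjusted p = 0.313). The part of basal cells in the difference of Krt15 was not tested.

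**Figure D2:**
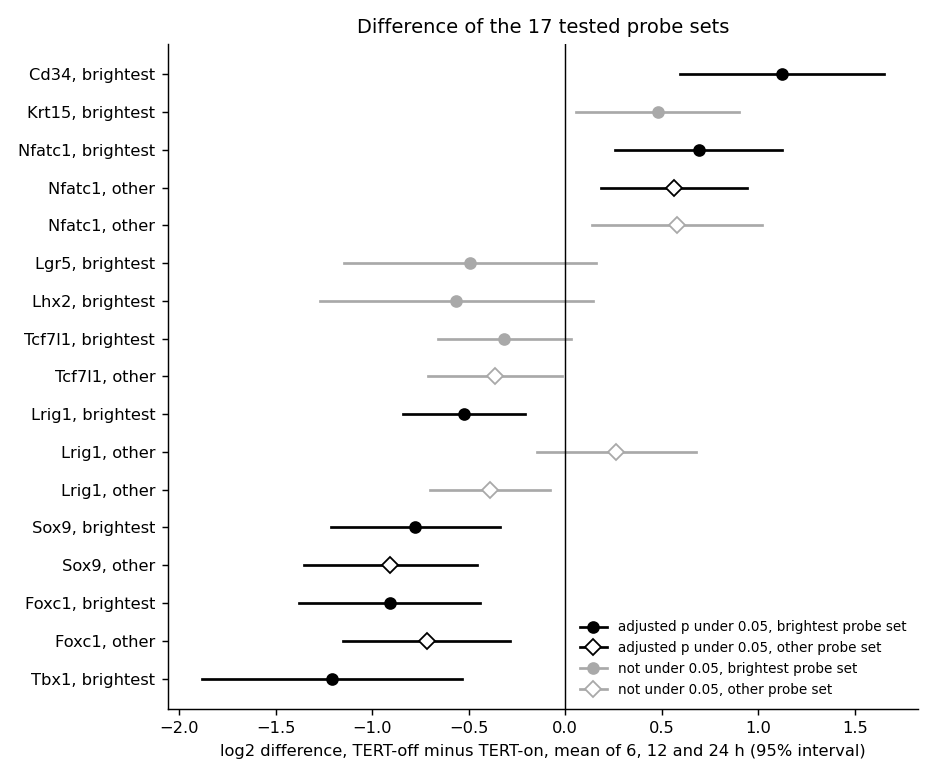
Difference of TERT-off minus TERT-on over 6 to 24 h for the 17 tested probe sets, with 95% intervals from limma (filled circle: brightest probe set of the gene, open diamond: other probe set, black: adjusted p under 0.05, grey: not). Probe sets of Sox9, Foxc1, Nfatc1 and Tcf7l1 agree in sign within the gene, and 1 of the 3 of Lrig1 lies at 0.27, opposite to the others.

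At single times, with 2 arrays against 2, the test called few genes. Shares of all genes called are at the adjusted threshold here. The share of all genes at an unadjusted p under 0.05 is not given, so the unadjusted counts have no background. At 0 h 0 of the 10 bulge genes passed (1 at an unadjusted p under 0.05 from limma, Krt15), with 0.0397% of all genes called. The number was 0 at 6 h (2 unadjusted, 1.74% of all genes called), 0 at 12 h (6 unadjusted, 2.57%) and 0 at 24 h (4 unadjusted, 2.42%), all by limma. The size of the difference nevertheless followed a course in some genes. That of Tbx1 was −0.83, −1.27 and −1.52 at 6, 12 and 24 h and that of Foxc1 −0.53, −0.95 and −1.24. That of Cd34 was 1.45, 1.32 and 0.60. Lrig1 stood at 0.07 at 6 h and at −0.91 (adjusted p = 0.0576) and −0.73 at 12 and 24 h. Differences between these times were not tested. Calls at single times changed without TERT-off replicate 2, in a fit with 1 TERT-off array at each time. The share of all genes called in that fit is not given here, so its calls are not read as a result about these genes.

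Against the 0 h biopsies, 0 of the 10 genes changed within TERT-off mice over the mean of 6, 12 and 24 h (1 unadjusted, 0.493% of all genes called) and 0 within TERT-on mice (1 unadjusted, 0.183% called). Shares of all genes are again at the adjusted threshold and are no background for the unadjusted counts. The difference between the cohorts' changes also passed for 0 (2 unadjusted, Krt15 and Cd34, with 0.00795% of all genes called), again by limma. For Cd34 this difference was 1.03 (SE 0.44, adjusted p = 0.349) and for Tbx1 −0.99 (SE 0.56, adjusted p = 0.446). Foxc1 and Sox9, which passed between the cohorts over 6 to 24 h, had differences of change of −0.27 and −0.31. At 0 h TERT-off replicate 1 was the lowest mouse for both (130 and 118), whereas TERT-off replicate 2 was not low (321 and 273). For Tbx1 and Lrig1 the lowest of the TERT-on values (291 and 262) were on the 0 h array of replicate 1, the array of low Gapdh ratio, and their mean changes of 1.09 and 0.98 in that mouse start from it. In TERT-on replicate 2 the changes were −0.01 and 0.06.

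**Figure D3:**
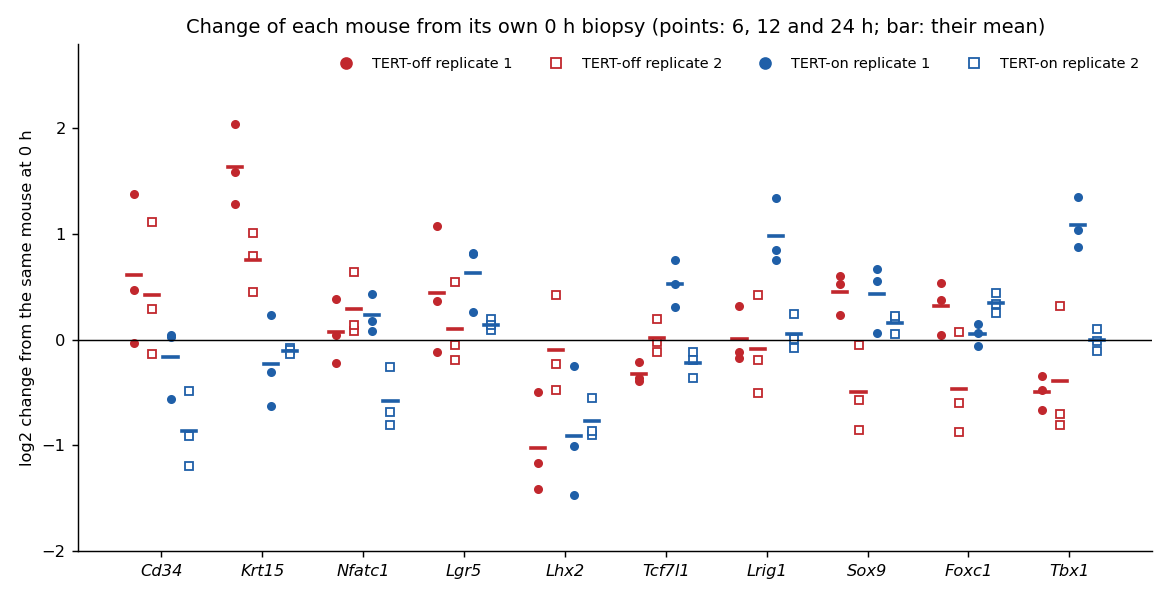
Log2 change of each bulge gene from the 0 h biopsy of the same mouse (points: 6, 12 and 24 h, bar: their mean), TERT-off in red to the left of TERT-on in blue, replicate 1 filled and replicate 2 open. Krt15 is above 0 on all 6 later TERT-off arrays, the mean changes of Foxc1 and Sox9 differ in sign between the TERT-off mice, and Tbx1 and Lrig1 are highest in TERT-on replicate 1.

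Across the 16 arrays, which come from 4 mice and are not independent, the 10 genes formed groups. Sox9 and Foxc1 ran together (r = 0.94), and Tbx1 followed Foxc1 (r = 0.84), Tcf7l1 (0.81), Sox9 (0.78) and Lgr5 (0.78). Cd34 and Nfatc1 ran together (r = 0.82) and against these, with r = −0.81 between Nfatc1 and Foxc1 and −0.64 between Cd34 and Tbx1. Krt15 correlated with Cd34 at 0.51 and less with the others.

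The genes most like each member over the 16 arrays were sought among 12303 genes, with other members included. Those of Foxc1 were Prkci (r = 0.99), an atypical protein kinase C of cell polarity, Krtap17-1 (0.98), a keratin-associated protein of the hair shaft, and Phactr4 (0.98). Those of Sox9 were Ephb3 (0.97), Atg101 (0.96) and Gja1 (0.95), the gap junction protein connexin 43. Those of Lhx2 were Scube3 (0.95), Shh (0.93), the hedgehog ligand of the hair matrix, and Sufu (0.93). Tbx1 was most like Dgkz (0.94), the histone methyltransferase Dot1l (0.93) and the histone demethylase Kdm6b (0.93). For Cd34 they were Kctd12b (0.95), Celf2 (0.94) and Hsd17b11 (0.94), and for Nfatc1 Tm6sf1 (0.95), AI467606 (0.94) and Adgre1. Likeness was lower for Krt15 (Sh3bp5, 0.90), Lgr5 (Rab34, 0.87), Lrig1 (Dbn1, 0.87) and Tcf7l1 (Cdk16, 0.89). Krtap17-1 itself was lower in TERT-off skin by a log2 difference of −4.09 (adjusted p = 0.0158), Shh had a difference of −2.49 that did not pass (adjusted p = 0.0506), and Adgre1 was higher by 1.33 (adjusted p = 0.00706). The points share their mice, whose hair shaft keratin levels are given above.

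A wider list of 30 genes of the bulge and upper follicle had 10 lower, 6 higher and 14 that did not pass, with a median of −0.22, where 12.6% of all genes were lower and 16.9% higher. Itgb6, an integrin that activates TGF-β, read 10.4 to 40.2 on TERT-off arrays and 24.9 to 45.4 on TERT-on arrays (−1.12, SE 0.31, adjusted p = 0.0219). Fgf18, a growth factor of the resting bulge that holds the follicle in telogen, read 18.2 to 76.8 on TERT-off arrays and 11.0 to 21.8 on TERT-on arrays (1.44, SE 0.33, adjusted p = 0.0105). Both overlapped between the cohorts. Grem1, a BMP antagonist, read 62.8 to 131 on TERT-off arrays and 38.1 to 53.6 on TERT-on arrays, without overlap (1.03, SE 0.18, adjusted p = 0.00448). S100a4, a calcium-binding protein, read 1361 to 2731 on TERT-off arrays and 926 to 1390 on TERT-on arrays, which met at the edge (1.01, SE 0.19, adjusted p = 0.00584).

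Among the genes that work with the members, 3 of the 8 tested in the Lgr5 system were lower and 0 higher, beside the same shares of all genes. They were Znrf3 and Rnf43, the ubiquitin ligases that clear Wnt receptors and that R-spondin and Lgr5 hold back (−0.70 and −0.52, SE 0.22 and 0.17, adjusted p = 0.0348 and 0.0439), and Lgr4, the related receptor (−0.44, SE 0.14, adjusted p = 0.0392). In the Tcf7l1 system 3 of 10 were lower and 0 higher. Tle3, a co-repressor of TCF factors, read 212 to 384 on TERT-off arrays and 377 to 467 on TERT-on arrays (−0.76, SE 0.16, adjusted p = 0.00895). Ccnd1, cyclin D1, differed by −0.83 (SE 0.24, adjusted p = 0.0247) and Ctnnb1, β-catenin, by −0.21 (SE 0.06, adjusted p = 0.0208). Ctnnb1 read 3044 to 3583 on TERT-off arrays and 3671 to 4013 on TERT-on arrays, without overlap.

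Around Lrig1, 1 of 10 genes was lower and 2 were higher, counts near the 12.6% and 16.9% of all genes. The EGF receptor ligand Tgfa read 129 to 315 on TERT-off arrays and 265 to 555 on TERT-on arrays (−1.24, SE 0.27, adjusted p = 0.00879), whereas Btc, another ligand of the family, read 103 to 296 on TERT-off arrays and 67.4 to 110 on TERT-on arrays (1.02, SE 0.26, adjusted p = 0.0176). Lrig2, a relative of Lrig1, was higher by 0.29 (SE 0.09, adjusted p = 0.0287). Around Nfatc1, also with 1 of 10 lower and 2 higher and so near these shares, Cdk4, the cell cycle kinase that NFATc1 represses, differed by −0.45 (SE 0.11, adjusted p = 0.0149), with 459 to 647 on TERT-off arrays below the 657 to 902 on TERT-on arrays. Nfatc4, a sister factor, read 171 to 301 on TERT-off arrays and 65.1 to 137 on TERT-on arrays (1.28, SE 0.20, adjusted p = 0.00304), and Nfatc2 differed by 0.76 (SE 0.22, adjusted p = 0.0247). Among relatives of Sox9, Lhx2, Tbx1 and Foxc1, 1 of 10 was lower and 3 higher: Sox5 at −1.16 (SE 0.33, adjusted p = 0.0257), Sox6 at 1.04 (SE 0.30, adjusted p = 0.0252), Tbx15 at 0.68 (SE 0.20, adjusted p = 0.0275) and Tbx3 at 0.40 (SE 0.13, adjusted p = 0.0391). Sox5 was under the floor of 7.71 on at least 1 TERT-off array. Over the 77 genes of these lists, each counted once, 19 were lower and 13 higher, with a median of −0.16. The share that was higher equalled the 16.9% of all genes.

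Markers of neighbouring follicle compartments were counted in the same way. In the outer root sheath and companion layer 3 of 6 markers were lower and 0 higher (median −0.64, where 12.6% of all genes were lower). The median of the bulge genes was −0.51. By time the medians were unlike. At 6, 12 and 24 h they were −1.18, −0.99 and −0.04 for the outer root sheath list, with 1 marker called higher at 24 h. Those of the bulge genes were −0.33, −0.64 and −0.59. Differences between these medians were not tested. Regulators of the hair matrix were lower in 8 of 12 and higher in 0 (median −1.70), and genes of the inner root sheath were lower in all 10 (median −4.72). Of 14 cell cycle genes 13 were lower and 0 higher (median −0.82).

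**Figure D4:**
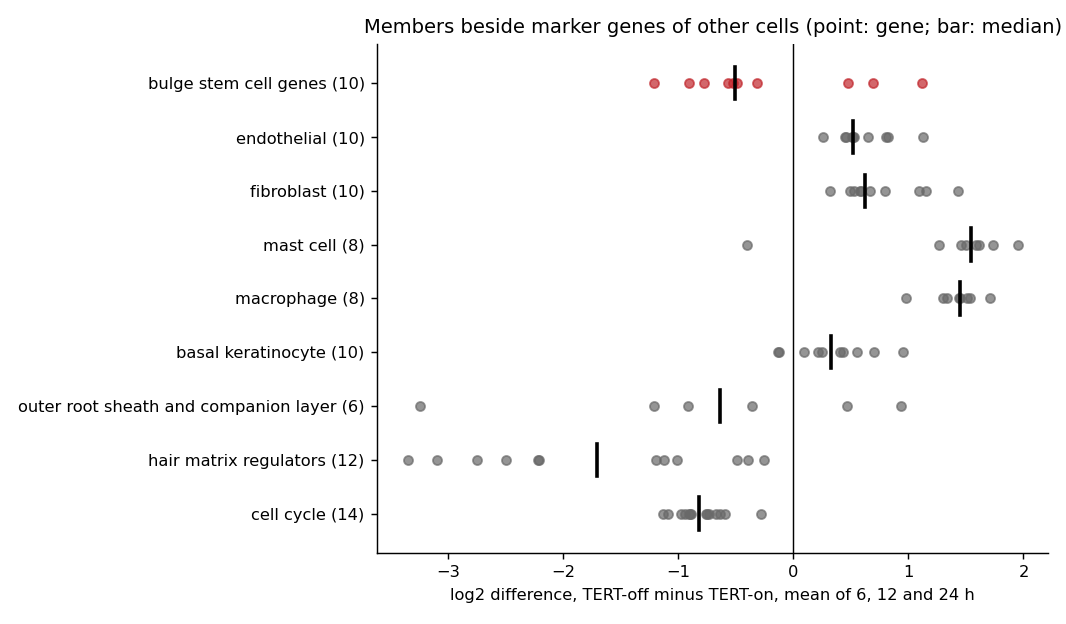
Difference (log2, TERT-off minus TERT-on) over 6 to 24 h of the 10 bulge genes (red) and of marker genes of other skin cells (grey), 1 point per gene and a bar at the median, with the number of genes in brackets. The bulge genes spread on both sides of 0, the mast cell and macrophage markers centre at 1.54 and 1.45, and the hair matrix regulators centre at −1.70.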

How the data were processed

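Each biopsy was hybridised to a mouse whole-genome Affymetrix array. The authors deposited linear intensity per probe set, made in dChip with invariant-set normalization between arrays and the model that subtracts mismatch from perfect-match probes. The genome build is not given in the sources used here. Array medians were 32.9 to 36.3, and the number of arrays limits the precision. Of the probe sets, 34958 had 1 symbol, 932 several and 9211 none; only those with 1 symbol were named.

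Before log2, a floor was set at the 20th percentile of all values (7.71), and 0.298% of the kept values lay under it. Probe sets above the table's median (34.4) on at least 2 arrays, with a value in every group, were kept. One limma fit (3.58.1 in R 4.3.3, statmod 1.5.0) modelled the mean of each of 8 groups, took the mouse as random (a consensus correlation of 0.0728 for all genes), and used an intensity trend and Benjamini-Hochberg adjustment over 25563 probe sets. Where mice of a cohort differ more than this correlation allows, p-values may be too small. The fit was tested on simulated data. The study's own SAM test on the time course was not run here.

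Members and lists were chosen with earlier results of these data known. The genes named are all members with all probe sets, Tert and Krt5, up to 4 called genes of each partner list by size of the difference, and the 3 genes most like each member (Pearson r over 16 arrays, the first of the 3 for members of lower likeness). Marker lists of sebaceous gland (1 of 7 lower, 2 higher), dermal papilla (1 of 10, 3), suprabasal epidermis (2 of 10, 2), T cells (0 of 4, 2), neutrophils (0 of 6, 5), adipocytes (0 of 5, 3) and skeletal muscle (0 of 6, 2) were counted in the same fit. Alternatives covered the floor, filter, normalization, block, trend, each mouse left out, the 0 h array of low Gapdh ratio and the probe sets of a gene. Replicate numbers do not pair mice across cohorts. Promoters came from RefSeq (GRCm38.p6). Figures were drawn with matplotlib 3.10.9.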

Additional observations from a re-analysis of the deposited data

Results flagged for a closer look

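In 2 of the 20 groups of 6 arrays examined (10 genes, 2 cohorts, 6 to 24 h), 1 array stood far from the other 5. Both times it was the 6 h array of TERT-off replicate 2, the highest of the TERT-off arrays. Its Sox9 intensity was 263, with a gap to the next array of 0.637 of the group's range, and its Tbx1 intensity was 621, with a gap of 0.702 of the range. The rule is set to flag about 1 in 20 groups of independent values by chance. That rate need not hold here, because the 6 arrays of a group come from 2 mice and the gaps are on the linear scale. The 2 flags also share an array, and Sox9 and Tbx1 correlated at r = 0.78. The 6 h array of TERT-off replicate 2 had a summed hair shaft keratin intensity of 14775 (7 genes), against 181 to 871 on the other 5 TERT-off arrays of these times. Its part in the values of Sox9 and Tbx1 was not tested.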

How the results depend on the processing

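The count of 6 members called over 6 to 24 h was 4 to 7 under every alternative other than leaving out a mouse, which gave 0 to 9. It was 4 with no filter, losing Nfatc1 and Tbx1, and 7 after quantile normalization, adding Krt15. Centring each array on basal keratinocyte markers shifted the median of all genes by −0.34 on the log2 scale. With it 6 members were lower and 1 higher (Lhx2 and Tcf7l1 were added and Nfatc1, at 0.36 with adjusted p = 0.127, was lost). Of all genes, 4888 were then lower and 963 higher, against 1588 and 2122 in the deposited scaling. Thus 16.5% of all called genes were higher, against 57.2% in the deposited scaling. With the replicate number as a block in place of the mouse, the count over 6 to 24 h stayed at 6, with 4 lower and 2 higher, and 1 member was called at 12 h (Lrig1) and 1 at 24 h (Foxc1), against 0 at both. Deviations of mice with the same number correlated between the cohorts at −0.03, −0.13, 0.10 and 0.06 at 0, 6, 12 and 24 h, and the numbers name different mice, so they share only a number. The change within TERT-off mice was called for 1 member, Krt15, after quantile normalization and after basal keratinocyte centring. Without the 0 h array of low Gapdh ratio, 1 member (Lrig1) was called at 12 h. Leaving out 1 mouse gave 0 to 1 members at 0 h, 0 to 6 at 6 h, 0 to 1 at 12 h and 0 to 1 at 24 h, and 0 for the 3 changes from 0 h. Signs changed for 2 differences: Lhx2 was at 0.035 without TERT-off replicate 1 (and at −1.16 when the other TERT-off mouse was left out), and Lrig1 was at 0.27 on its dimmest probe set. The cause of these changes was not tested. With the mouse as a fixed block, chosen after seeing the data, the 3 counts of changes stayed at 0.

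With 2 mice in each cohort, 1 decides many calls. In a fit without 1 TERT-on mouse, each TERT-on group holds 1 array. The residual spread then comes from the TERT-off mice alone, which differed widely, and its part in the lost calls was not tested. The shares of all genes called without a mouse are not given here, so those member counts have no background. Intensities near the floor carry no order.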
